A study of Mus musculus with 104 samples.

Results

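The clustered protocadherins are cell adhesion proteins of the cadherin superfamily that sit on the surface of neurons and are encoded in 3 neighbouring gene clusters, called alpha, beta and gamma. They were taken here as all RefSeq symbols of the form Pcdha, Pcdhb, Pcdhga, Pcdhgb or Pcdhgc followed by a number, with the C-type genes Pcdhac1 and Pcdhac2 included. This gave 59 genes of 24060 in the count table, of which 15 were alpha, 22 beta and 22 gamma genes. By type they were 13 alpha, 22 beta, 12 gamma-A, 7 gamma-B and 5 C-type genes. The clusters lie on mouse chromosome 18 (build GRCm38) at 36930184 to 37187661 (alpha), 37264938 to 37524479 (beta) and 37661793 to 37841873 (gamma).

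Each alpha and gamma gene is a variable exon with a promoter of its own, spliced to constant exons that the whole cluster shares, whereas the beta genes have no shared exons. Most promoters are chosen at random in each neuron, through DNA looping by CTCF and cohesin, so that a neuron displays a small set of isoforms; the C-type promoters are used more evenly from cell to cell. The proteins bind their own kind on opposing membranes, which lets a neuron tell its own branches from those of other neurons and keeps its dendrites and axons from crossing or clumping. In bulk tissue a gene's level therefore sums over many neurons, and fewer cells that use a promoter cannot be told apart from less RNA per cell.

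The samples were libraries from the cerebral cortex of wild type C57BL/6 mice aged 6 months, 4 females and 4 males from each of 13 lines (52 of each sex). The lines carry gene names (Tbc1d8, Gsg1l, Arpp19, Dach1, Ece2, Hrk, Kdm3b, Morf4l1, Pcdh20, Ppp1ca, Rasgef1a, Rgs9 and Zswim6), but every animal is labelled wild type, so each is a group of control animals. The tag on this label is "batch", so a line and a batch cannot be told apart, and no label says which mice are related. The libraries carried a plate label, 8 on plate 2 and 96 on plate 1.

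The median library held 28.381 M reads and the deepest 33.489 M. Kdm3b female replicate 22 was the shallowest at 3.389 M, and the next held 23.932 M. All 8 general neuronal markers passed the filter, at 13000 to 14200 summed CPM in females and 13300 to 14500 in males. They cannot tell cortex from other brain tissue. Summed over 6 upper layer markers the ranges were 1210 to 1450 CPM and 1150 to 1480 CPM. For 7 markers of striatal projection neurons they were 170 to 204 CPM and 171 to 212 CPM. Choroid plexus markers reached 5.86 CPM in females and 314 CPM in males, with a male median of 3.89. CPM are read counts scaled to a common library size. Any 2 libraries differed by more than sampling noise (smallest chi-square per degree of freedom 1.996 over any pair). In 3 libraries Xist reads went against the sex label, and in 2 of these the Y-linked reads did too. The library labelled Rasgef1a male replicate 40 held 32425 Xist and 0 Y-linked reads, and Rgs9 female replicate 43 held 3 Xist and 4479 Y-linked reads. Rasgef1a female replicate 39, by contrast, had 2 Xist and 0 Y-linked reads, so that only its Xist reads went against the label. All were analysed as labelled, and the sex results are given with and without them.

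Members differed widely in level, and 3 of the C-type genes stood above all other members. Levels between genes are compared on the authors' FPKM, which is scaled per length of the gene model. Pcdhgc5, which in rat neurons binds GABA-A receptors, was at a median of 33.8 FPKM over all libraries, with a lowest of 27.2 and a highest of 41.3. Pcdhgc3, which restrains Wnt signalling through Axin1 and shapes cortical dendrites, followed at 15.2 FPKM (13 to 18.2). Pcdhac2, which serotonergic neurons need to space their axons, came next at 9.65 FPKM (7.51 to 11.1). The ranges of these genes did not overlap each other, and the highest value of the next member, Pcdhb17, was 7.40. The other C-type genes were lower: Pcdhgc4, on which the survival of many neurons after birth depends, was at 3.32 FPKM (2.68 to 4.05) and Pcdhac1 at 1.30 (0.805 to 1.75).

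In the alpha cluster Pcdhac2 was followed by Pcdha12 at a median of 2.82 FPKM and by Pcdhac1. The lowest alpha genes with reads were Pcdha8 at 0.159 FPKM and Pcdha4 at 0.151. The levels of these alpha genes rested on 27.1 reads per library on average for Pcdha8 and 23.5 for Pcdha4. Pcdha4-g had 0 reads in every library, which allows at most 0.00101 CPM over all libraries together and covers counting error only. In the beta cluster Pcdhb17 led at 6.19 FPKM (5.37 to 7.40), followed by Pcdhb9 at 5.43 (4.21 to 6.84) and Pcdhb20 at 4.14 (3.45 to 4.89), and these ranges overlapped. The lowest beta genes were Pcdhb6 at 1.19 FPKM, Pcdhb4 at 1.14 and Pcdhb1 at 0.0258; Pcdhb1 averaged 1.89 reads and was at 0 in 29 libraries. In the gamma cluster Pcdhga11 came after Pcdhgc5 and Pcdhgc3 at 5.75 FPKM (4.49 to 6.96), and the lowest were Pcdhgb5 at 1.21, Pcdhgb4 at 1.20 and Pcdhgb8 at 0.231.

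**Figure D1:**
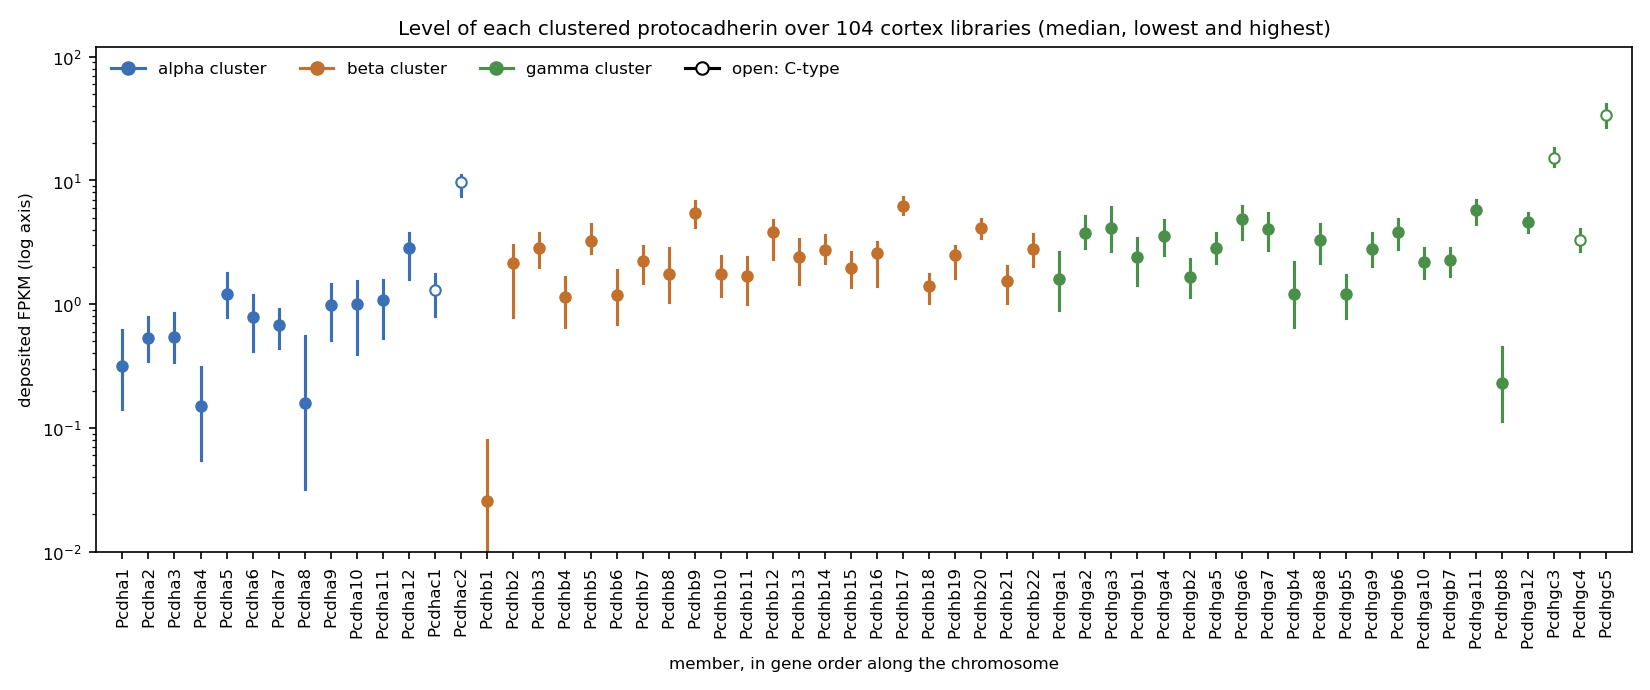
Level of each member in gene order, as the authors' FPKM on a log axis; points are medians over all libraries, lines run from the lowest to the highest library, and open points are C-type genes. Pcdhgc5 (33.8), Pcdhgc3 (15.2) and Pcdhac2 (9.65) stand above the rest, and Pcdhb1, whose lowest value is 0 and whose line is drawn to the foot of the axis, lies below it; Pcdha4-g, at 0 throughout, is not drawn.

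The lengths behind these FPKM values were 5206 to 5422 bases for alpha genes, 4480 to 5079 for gamma genes and 2319 to 5270 for beta genes, and the alpha and gamma lengths include the constant exons. If reads of the constant exons were not assigned to single genes, which the counting mode would settle, FPKM understates alpha and gamma genes relative to beta genes. Scaled instead as CPM per kilobase of the first exon, the top members kept their places, at 60.7 for Pcdhgc5, 27.7 for Pcdhgc3 and 17.3 for Pcdhac2, and Pcdhga11 came next at 10.3. On this scale Pcdhb9 (5.43) stood above Pcdhb17 (4.35) in the beta cluster. The variable exons of alpha genes also resemble each other: a median of 14.8% of their 50-base windows occur in another gene (highest 26.6%), against 3.5% for beta and 0.75% for gamma genes and 0% for the C-type genes, so reads of close alpha copies may have been split or lost. Pcdha10 was placed by its start, and the gene there bears the name Pcdha11 in GENCODE. An annotated antisense gene lies over the first exon of 15 members, and without the strand setting its reads cannot be told apart from theirs.

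C-type genes made up about as many reads as all other members of their clusters together. Pcdhac2 held 46.3% ± 1.70 (SD over all libraries) of the alpha cluster's counts and Pcdhac1 5.94% ± 0.569. Pcdhgc5 held 31.3% ± 1.45 of the gamma cluster's counts, Pcdhgc3 14% ± 0.880 and Pcdhgc4 3.30% ± 0.258. Together the C-type genes took 52.3% ± 1.71 of alpha reads and 48.5% ± 1.82 of gamma reads. The beta cluster was more even: its largest share was 10.7% ± 0.738, for Pcdhb17, where an even split over its 22 members would be 4.55%.

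Members also differed in how much they varied from mouse to mouse. The coefficient of variation of CPM over all libraries was 5.98% for Pcdhgc3, 6.23% for Pcdhgc5 and 6.86% for Pcdhac2. It was 60.0% for Pcdha8 and 88.6% for Pcdhb1, which also had among the fewest reads. The biological coefficient of variation fitted by edgeR sets counting error aside. Its median was 0.106 over the 57 members that passed the filter, against 0.0664 over all 15723 genes, which were not matched for abundance. The fitted trend itself stood at 0.0586 for Pcdhgc5, with the most reads, and at 0.167 for Pcdha4, with the fewest. Of the 57, 36 lay above the trend for their abundance, and the share of all genes above it was not computed. Pcdha8 was at 0.372, against 0.161 on that trend. Pcdhb1 and Pcdha4-g did not pass the filter on low counts and were not tested.

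Females differed from males in 14 of the 57 tested members, and 12 of these were higher in females (edgeR's quasi-likelihood test, Benjamini-Hochberg adjustment over all genes). Over all 15723 genes 4.07% were called higher and 4.5% lower in females. The median log2 difference, female minus male, was 0.0218 over the tested members and 0.00016 over all genes, and 35 of 57 members were above 0. By cluster, 3 of 14 tested alpha genes and 7 of 21 beta genes were higher in females and none was lower. In the gamma cluster 2 of 22 were higher and 2 lower. For every called member the ranges of the sexes overlapped.

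Pcdha8 had the largest sex difference of any member. It ran from 0.330 to 2.92 CPM with a median of 1.09 in the 52 females, and from 0.165 to 1.37 CPM with a median of 0.662 in the 52 males. The high values were female: 20 females lay above every male, and 48 of 52 males lay below the female median. The log2 difference was 0.91 ± 0.12 (standard error; adjusted p = 1.37e-08), and females were higher in 13 of 13 lines, from 0.27 in Ece2 to 1.33 in Arpp19. This gene averaged 27.1 reads per library, and 18.8% of the windows of its first exon occur in another gene.

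In the beta cluster the difference was led by Pcdhb6 and Pcdhb2. Pcdhb6 ran from 2.07 to 4.33 CPM with a median of 3.07 in females, and from 1.6 to 3.49 CPM with a median of 2.46 in males. The log2 difference was 0.30 ± 0.04 (adjusted p = 1.30e-07) and females were higher in 13 of 13 lines. Pcdhb6 is among the lower beta genes by level, so the difference is carried by few reads (79.2 per library). Pcdhb2 ran from 4.94 to 8.23 CPM with a median of 6.47 in females, and from 2.14 to 6.93 CPM with a median of 5.50 in males; 18 females lay above every male and the lowest male, at 2.14, was Gsg1l male replicate 13. Its log2 difference was 0.27 ± 0.04 (adjusted p = 4.66e-07), with females higher in 12 of 13 lines.

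The other called beta genes differed by less, at higher levels. Pcdhb3 ran from 8.98 to 14.3 CPM with a median of 11.7 in females and from 7.40 to 12.9 CPM with a median of 10.1 in males, a log2 difference of 0.20 ± 0.03. Pcdhb9, the second highest beta gene by FPKM, ran from 14.3 to 20.7 CPM with a median of 17.4 in females and from 12.9 to 18.6 CPM with a median of 15.3 in males, a log2 difference of 0.15 ± 0.02. Both were higher in females in 13 of 13 lines, with an adjusted p of 5.76e-07 for Pcdhb3 and 8.02e-07 for Pcdhb9. Pcdhb5 and Pcdhb11 each differed by 0.17 and Pcdhb15 by 0.12, with standard errors of 0.03, 0.04 and 0.03 and adjusted p of 9.08e-06, 0.00118 and 0.0065; each was higher in females in 12 of 13 lines. Pcdhb17 and Pcdhb20, which were also among the 3 highest beta genes, averaged 20.2 ± 1.28 and 14.1 ± 1.03 CPM in females (SD, n = 52) and 20.2 ± 1.40 and 14 ± 1.19 CPM in males, and neither was called. Summed over the cluster, beta genes came to 195 ± 9.98 CPM in females and 184 ± 10.9 CPM in males.

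The called beta genes were not spread evenly along the cluster, a description made after the values were seen. In gene order, 6 of the 10 tested genes among the first 11 (Pcdhb1 to Pcdhb11) were called higher in females, and 1, Pcdhb15, among the 11 that follow. From Pcdhb17 to Pcdhb22 the log2 differences lay between -0.03 and 0.02.

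**Figure D2:**
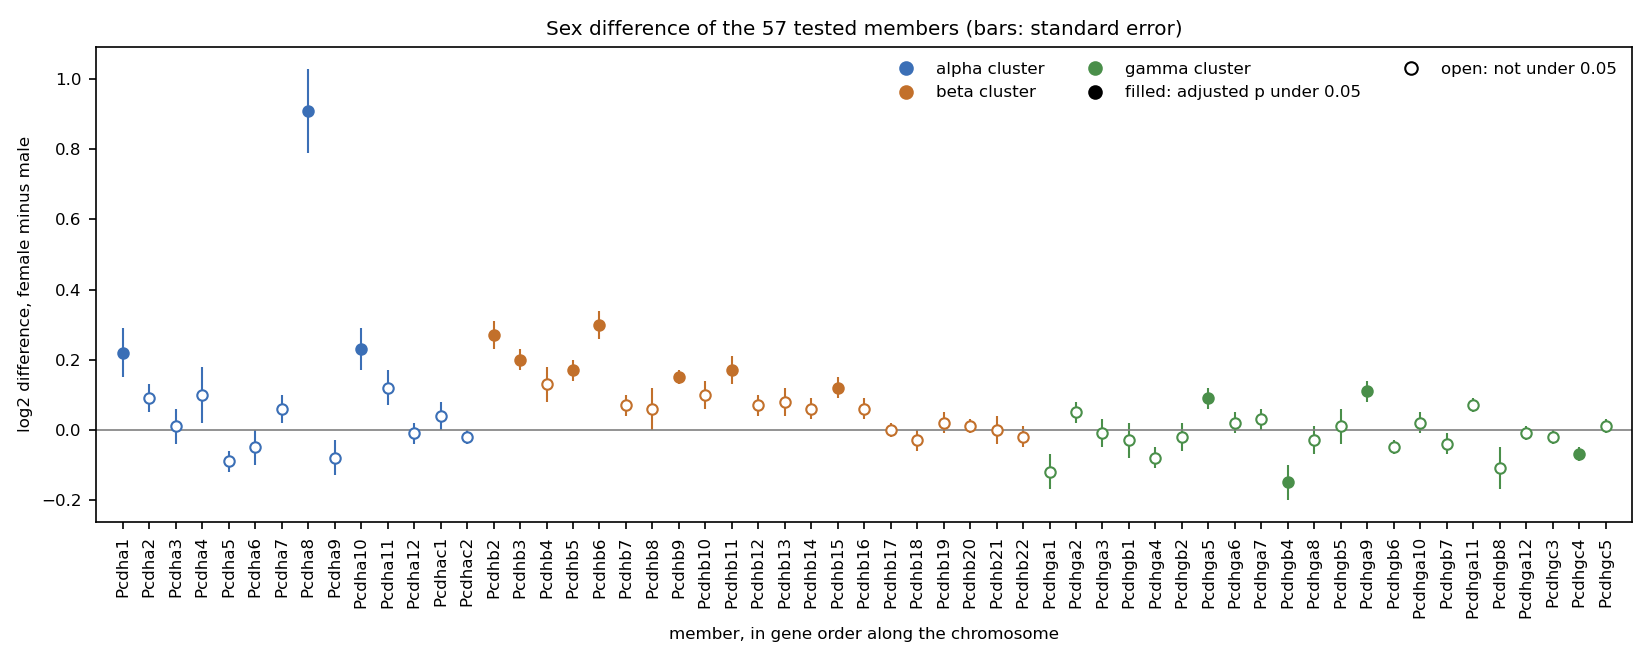
Log2 difference, female minus male, of the 57 tested members in gene order, with standard errors as bars; filled points passed an adjusted p of 0.05. Pcdha8 stands at 0.91, the beta genes Pcdhb2 to Pcdhb11 lie above 0, and the called gamma genes lie on both sides of 0.

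Among the other alpha genes, Pcdha10 ran from 2.82 to 8.05 CPM with a median of 5.90 in females and from 2.11 to 7.80 CPM with a median of 5.10 in males. The ranges nearly coincide, and the log2 difference was 0.23 ± 0.06 (adjusted p = 0.0033). Pcdha1 averaged 1.85 ± 0.466 CPM in females and 1.57 ± 0.378 CPM in males (SD, n = 52 each), a log2 difference of 0.22 ± 0.07 (adjusted p = 0.0195); this adjusted p was 0.0532 without the line Arpp19 and 0.0502 without Pcdh20. Pcdha12, the highest alpha gene outside the C-type, averaged 14.3 ± 2.23 CPM in females and 14.4 ± 2.05 CPM in males and was not called. Summed alpha counts came to 114 ± 6.82 CPM in females and 113 ± 9.39 CPM in males.

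The called gamma genes differed by little; Pcdhga9 and Pcdhga5 are named here after their values were seen. Pcdhga9 and Pcdhga5 were higher in females by 0.11 ± 0.03 and 0.09 ± 0.03 on the log2 scale (adjusted p = 0.0321 and 0.0431), and Pcdhgb4 and Pcdhgc4 were lower by -0.15 ± 0.05 and -0.07 ± 0.02 (adjusted p = 0.0321 and 0.0398). Leaving out 1 line ended the call of Pcdhga5 for 9 lines, of Pcdhga9 for 7, of Pcdhgb4 for 6 and of Pcdhgc4 for 9. Pcdhgc4 averaged 16.4 ± 1.15 CPM in females and 17.2 ± 1.36 CPM in males (SD, n = 52 each) and was higher in females in 2 of 13 lines. The other C-type genes did not pass the test: the log2 difference was -0.02 ± 0.02 for Pcdhgc3, 0.01 ± 0.02 for Pcdhgc5, -0.02 ± 0.02 for Pcdhac2 and 0.04 ± 0.04 for Pcdhac1. Summed gamma counts came to 509 ± 19.4 CPM in females and 509 ± 21.5 CPM in males.

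**Figure D3:**
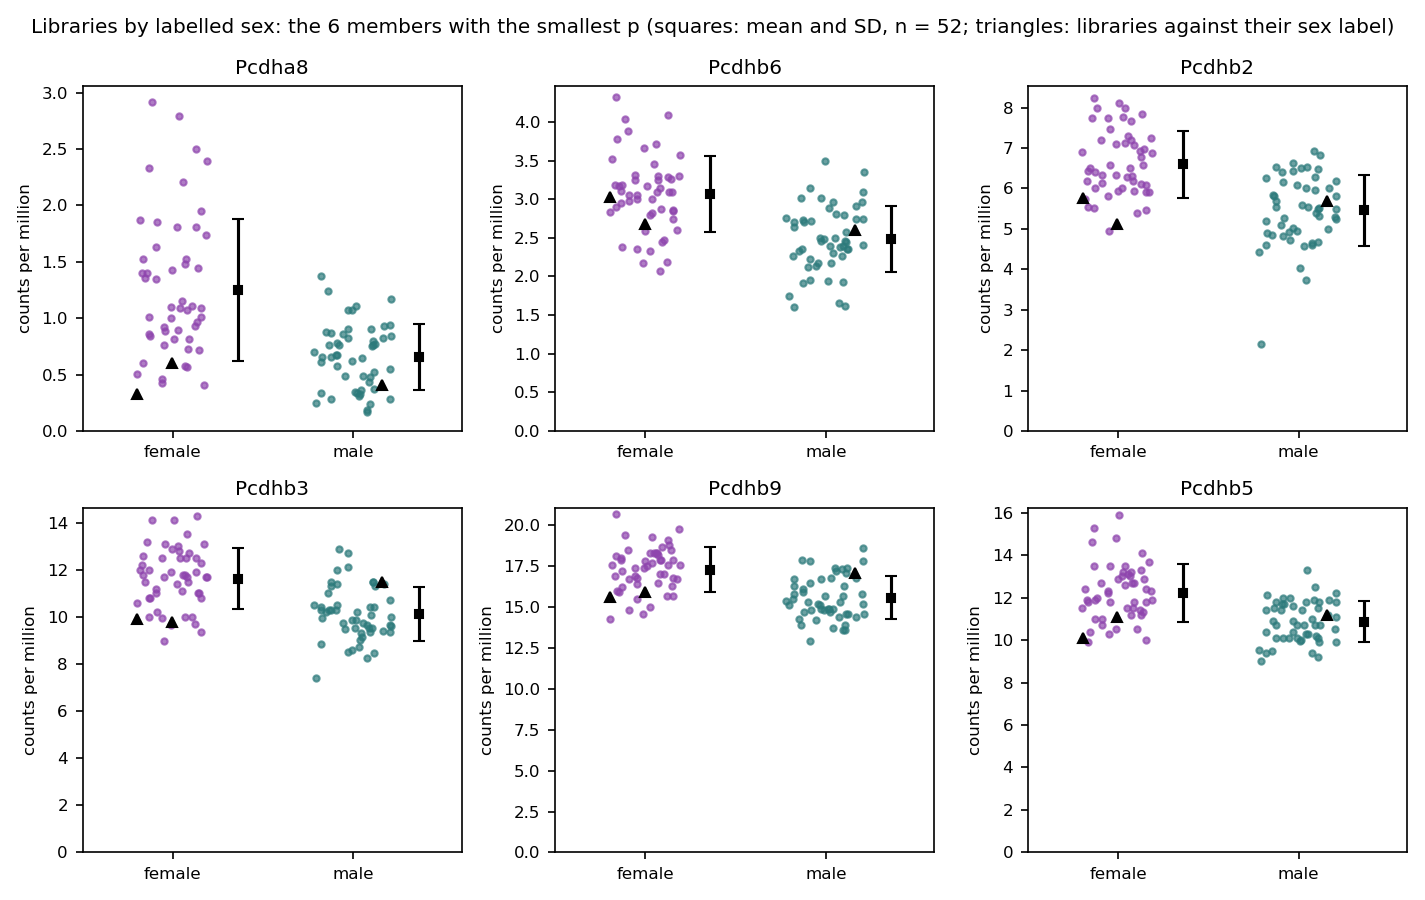
CPM in each library by labelled sex for the 6 members with the smallest p in the sex test; squares and bars are the mean and SD (n = 52), and triangles are the 3 libraries whose Xist reads go against the label (in 2 of them the Y-linked reads do too). The sexes overlap in each panel, and for Pcdha8 20 female libraries lie above every male.

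Without the 3 libraries against their label 13 members were called higher and 3 lower in females. Every call above was kept, Pcdha8 came to 0.94 and Pcdhb6 to 0.31 on the log2 scale, and Pcdhga11 (0.07) and Pcdha5 (-0.11, named after its value was seen) were added. In the library labelled Rgs9 female replicate 43, with Y-linked but almost no Xist reads, Pcdha8 stood at 0.599 CPM, and in Rasgef1a female replicate 39, with almost no reads of either kind, at 0.330 CPM, both below the female median. In the library labelled Rasgef1a male replicate 40, with Xist but no Y-linked reads, it stood at 0.411 CPM, below the male median. Some cell type markers were called by sex as well, in both directions, where 4.07% of all genes were higher and 4.5% lower in females. Of 8 general neuronal markers 2 were lower in females and none higher, Slc17a7 at -0.05 (adjusted p = 0.000433) and Rbfox3 at -0.04 (adjusted p = 0.0291) on the log2 scale. Of 7 markers of oligodendrocyte precursors 3 were higher in females (summed 201 to 253 CPM in females and 185 to 248 CPM in males), as were 2 of 8 of oligodendrocytes (1450 to 2640 CPM in females and 1720 to 2570 CPM in males). Of 8 microglia markers 1 was higher (Fcrls, 0.21, adjusted p = 2.77e-08) and 1 lower (Ctss, -0.08, adjusted p = 0.00029). Lower in females were also 1 of 9 interneuron markers (Htr3a, -0.18) and 1 of 7 striatal markers (Ppp1r1b, -0.13). Of 8 astrocyte markers 1 was higher (S100b, 0.10). No other marker list had more than 1 call by sex. With covariates for the mean level of meningeal, choroid plexus, oligodendrocyte and striatal genes, 11 members were called higher and 2 lower in females. The part of the neuronal, precursor and other markers without a covariate was not tested.

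Lines differed in 16 of the 57 tested members, against 9.61% of all genes (F-test over 13 lines). In each of the 16 the lowest line mean belonged to Tbc1d8 or Gsg1l, and the comparison of each line with the mean of the other 12 placed the calls in the same 2 lines. Tbc1d8 was lower in 18 members and Gsg1l in 11, and neither was higher in any. The tests of these lines share the other libraries, so their values are given side by side.

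In Tbc1d8, 18 of the 57 members were lower and none higher, where 6.79% of all genes were lower and 5.66% higher. Values of 52 of 57 members were below those of the other lines, and the median log2 difference was -0.12 over the members and 0.00 over all genes. The calls spread over the clusters, with 7 of 14 alpha, 3 of 21 beta and 8 of 22 gamma genes. Pcdha12, the highest alpha gene outside the C-type, was at 8.36, 9.89, 11.2, 11.2, 11.2, 11.7, 11.9 and 14.6 CPM in the 8 Tbc1d8 libraries, against 9.94 to 19.8 CPM with a median of 15 in the other 96. All 8 lay below that median, and the groups overlapped. The log2 difference was -0.38 ± 0.07 (adjusted p = 1.42e-05).

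Other members fell in Tbc1d8 by different amounts. Pcdhgb6 ran from 13.1 to 17.3 CPM with a median of 15 in Tbc1d8, against 14.6 to 22.6 CPM with a median of 18 in the other lines, a log2 difference of -0.26 ± 0.05 (adjusted p = 3.22e-05). Pcdha10 ran from 2.67 to 5.22 CPM with a median of 3.87 in Tbc1d8, against 2.11 to 8.05 CPM with a median of 5.46 in the others, a log2 difference of -0.54 ± 0.11 (adjusted p = 0.000247). For both genes all 8 Tbc1d8 libraries lay below the median of the others. Pcdha8 was the furthest down, at 0.165 to 0.816 CPM with a median of 0.393 in Tbc1d8 and 0.237 to 2.92 CPM with a median of 0.865 in the others (log2 difference -1.22 ± 0.27, adjusted p = 0.000581); the call was lost in females alone. Pcdhga11 and Pcdhb19 each differed by -0.19 ± 0.05, and Pcdhgb7 by -0.16 ± 0.05. Pcdhgb7 averaged 9.36 ± 0.729 CPM in Tbc1d8 (SD, n = 8) and 10.5 CPM over the other line means. Its call was lost without female replicate 46, male replicate 46 or male replicate 47.

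Among the C-type genes, the alpha pair was lower in Tbc1d8 and the gamma genes did not pass the test. Pcdhac2 averaged 48.6 ± 3.47 CPM in Tbc1d8 (SD, n = 8) and 52.8 CPM over the other line means, a log2 difference of -0.12 ± 0.03 (adjusted p = 0.00703). Pcdhac1 averaged 5.78 ± 0.943 CPM in Tbc1d8 and 6.83 CPM over the others (-0.24 ± 0.07, adjusted p = 0.0106). The differences were 0.03 ± 0.03 for Pcdhgc3, -0.01 ± 0.04 for Pcdhgc4 and 0.00 ± 0.03 for Pcdhgc5. The calls of both genes were lost without male replicate 47, on plate 1 alone and in females alone, and that of Pcdhac1 also without male replicate 45. These replicates are the 2 Tbc1d8 libraries on plate 2, so plate 1 alone and females alone leave both out and are not separate checks. Plate 2 minus plate 1, with line and sex in the fit, came to -0.09 ± 0.03 for Pcdhac2 and -0.17 ± 0.07 for Pcdhac1, and neither was called. C-type genes took 54.4% ± 1.99 of alpha and 51% ± 1.5 of gamma reads in Tbc1d8. In Gsg1l they took 53.9% ± 1.76 and 48.8% ± 1.36 (SD, n = 8 each). In the 11 lines other than Tbc1d8 and Gsg1l the shares were 51.9% ± 1.45 and 48.3% ± 1.72 (SD, n = 88). The alpha share was thus higher in both lines, and these shares were not tested.

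In Gsg1l, 11 members were lower and none higher, where 5.58% of all genes were lower and 4.86% higher. Of the 57, 51 were below the other lines, with a median log2 difference of -0.10 over the members and 0.01 over all genes. Pcdha12 was at 9.94, 10.5, 10.6, 10.9, 12.1, 12.1, 12.3 and 13.5 CPM in the 8 Gsg1l libraries, against 8.36 to 19.8 CPM with a median of 15 in the other 96. All 8 lay below that median, and the log2 difference was -0.34 ± 0.07 (adjusted p = 0.00012). Pcdhb6 ran from 1.6 to 2.82 CPM with a median of 2.15 in Gsg1l, against 1.62 to 4.33 CPM with a median of 2.82 in the others (-0.39 ± 0.08, adjusted p = 0.000575). Pcdhga10 ran from 7.41 to 9.60 CPM with a median of 8.23 in Gsg1l, against 7.69 to 13 CPM with a median of 9.95 in the others (-0.25 ± 0.06, adjusted p = 0.00122).

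Unlike in Tbc1d8, Pcdhgc5 was called lower in Gsg1l, though the difference between the lines was not tested. It averaged 149 ± 11.3 CPM in Gsg1l (SD, n = 8) and 160 CPM over the other line means, a log2 difference of -0.10 ± 0.03 (adjusted p = 0.0243). Pcdhac2 averaged 49.2 ± 3.71 CPM in Gsg1l and 52.7 CPM over the others (-0.10 ± 0.03, adjusted p = 0.0277). Both calls were lost without male replicate 13, and that of Pcdhac2 also without male replicate 14. Pcdhgb7 averaged 9.38 ± 0.774 CPM in Gsg1l and 10.5 CPM over the others (-0.16 ± 0.05, adjusted p = 0.0232). Its call was lost without male replicate 13, female replicate 13 or female replicate 15. Male replicate 13 decided much of the count. Without it 3 members were lower (Pcdha12, Pcdhb6 and Pcdhga10) and 1 higher (Pcdha1), where 3.5% of all genes were lower. Without female replicate 13 the count was 6, where 3.6% of all genes were lower, and without female replicate 14 it was 16, where 7.23% were. By sex, 12 members were lower in Gsg1l among males alone, with 51 of 57 below 0. Among females alone 1 was lower, with 37 of 57 below 0. Over all genes 561 of 15552 were lower among males alone and 71 of 15547 among females alone. The difference between the sexes within this line was not tested by itself. In Tbc1d8 leaving out each library in turn gave 13 to 16 lower members, and 7 of the 18 were called every time; in Gsg1l 3 of the 11 were.

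**Figure D4:**
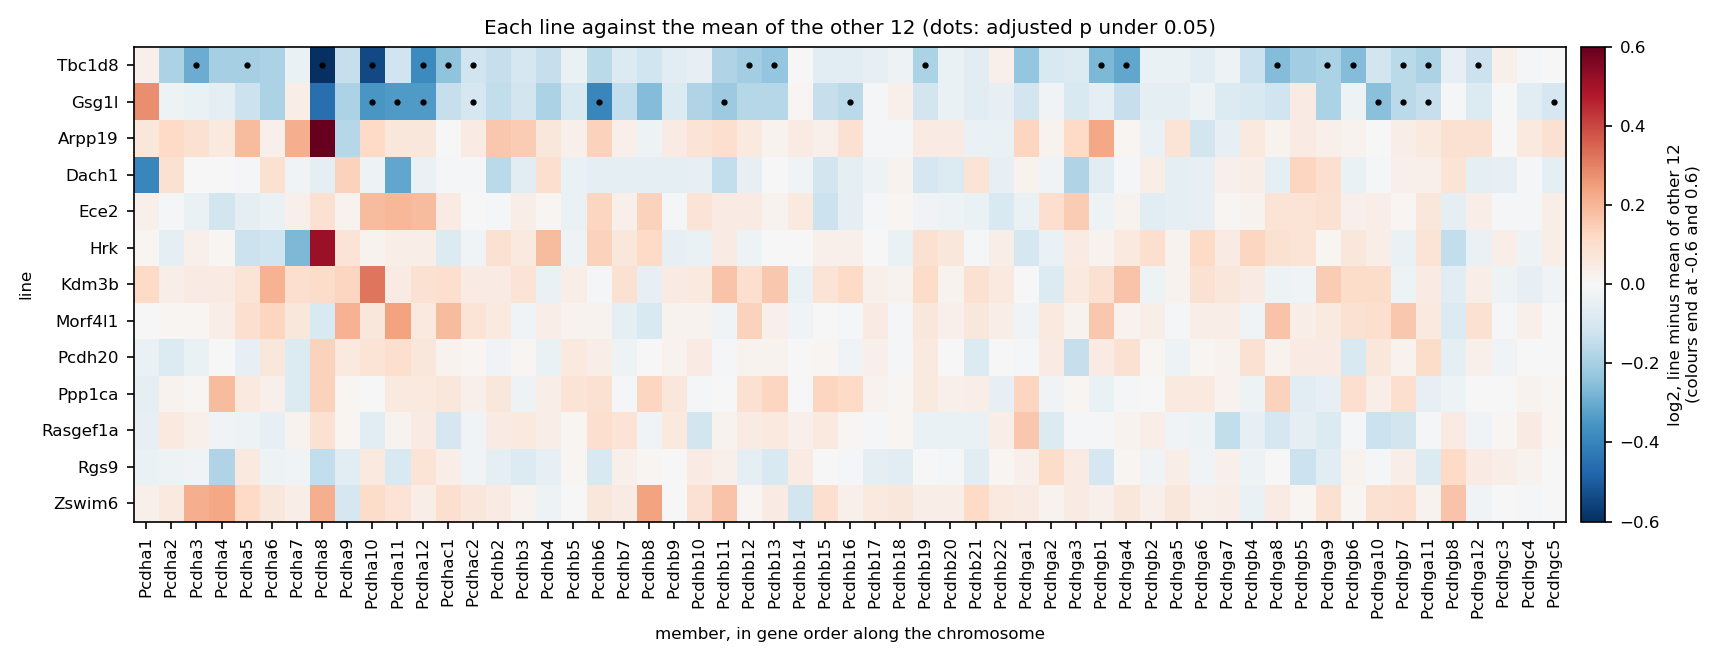
Log2 difference of each line from the mean of the other 12 for the 57 tested members in gene order; colours end at 0.6 in either direction and dots mark adjusted p under 0.05. Dots stand in Tbc1d8 (18) and Gsg1l (11) alone.

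**Figure D5:**
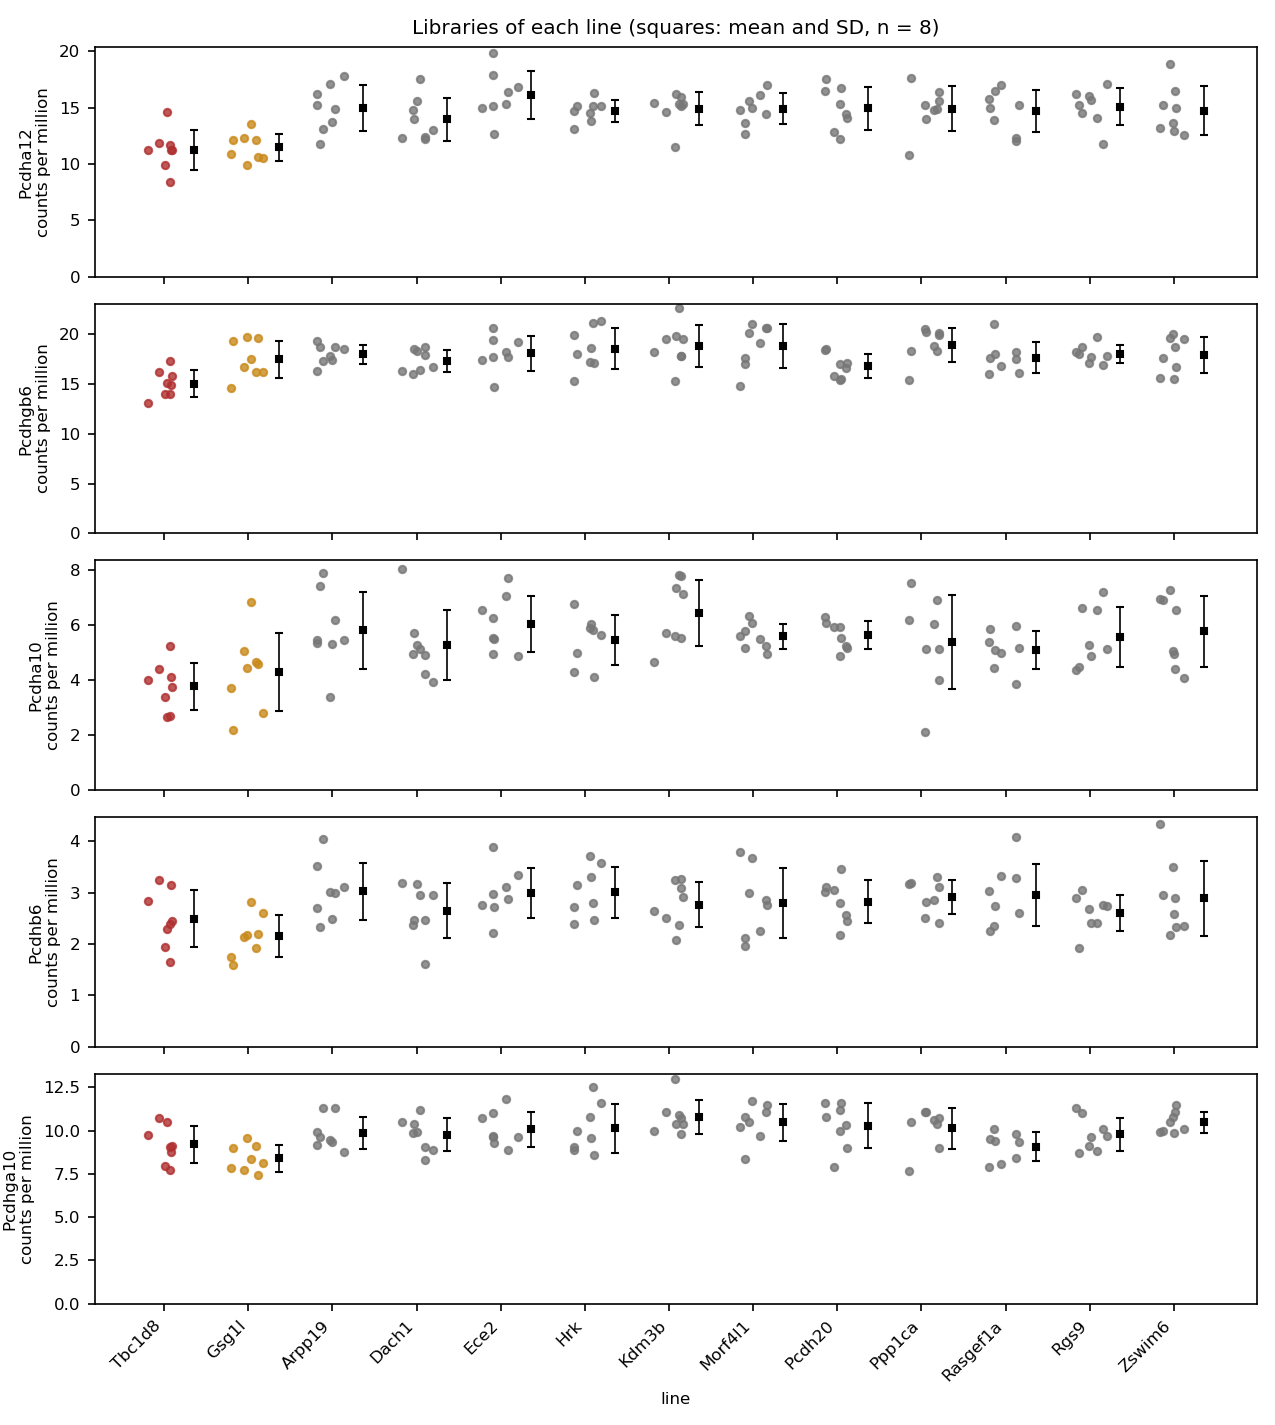
CPM of Pcdha12, Pcdhgb6, Pcdha10, Pcdhb6 and Pcdhga10 in each library by line, with Tbc1d8 and Gsg1l at the left. For Pcdha12 all 16 libraries of these lines lie at or below 14.6 CPM.

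Sums over the clusters followed the same lines. Alpha genes summed to 100 ± 6.62 CPM in Tbc1d8 and 103 ± 7.33 in Gsg1l (SD, n = 8 each), against 116 ± 6.31 CPM in the other 11 lines. Beta genes came to 179 ± 13.1 CPM in Tbc1d8 and 177 ± 17.3 in Gsg1l, against 191 ± 9.79, and gamma genes to 486 ± 15.1 and 483 ± 25.7, against 514 ± 17. By line mean Dach1 came next in each cluster, at 112 CPM for alpha, 183 for beta and 498 for gamma genes. The lowest Gsg1l beta sum, 144 CPM, was that of male replicate 13. By median the beta sum was 180 CPM in Gsg1l and 179 in Dach1, so their order in this cluster depends on the measure. No member was called in any of the other 11 lines by edgeR, and the smallest adjusted p was 0.162. Of 627 tests 54 reached an unadjusted p under 0.05, between 0 and 10 per line. The share of all genes at that threshold was not computed, so this count has no reference. Medians over the members ran from -0.03 in Dach1 to 0.05 in Arpp19, Kdm3b and Zswim6.

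Cell type markers were set beside these lines. Tbc1d8 had 2 of 8 general neuronal markers higher and 2 lower. Gsg1l had 2 of the 8 higher and none lower (Slc17a7 at 0.07 and Camk2a at 0.08 on the log2 scale). The summed level of 8 oligodendrocyte markers ran from 1830 to 2220 CPM (median 1990) in Tbc1d8 and 1750 to 2470 (median 1940) in Gsg1l. In the other 11 lines it ran from 1450 to 2640 CPM (median 2190). With 0 of 8 called in either line, the median log2 difference over these markers was -0.109 in Tbc1d8 and -0.118 in Gsg1l. Of 7 precursor markers 2 were higher in Tbc1d8 and none was called in Gsg1l. In each line 1 of 9 interneuron markers was higher (Htr3a) and 1 lower (Slc32a1). The same held for 7 striatal markers (Ppp1r1b higher, Penk lower), and 1 of 6 upper layer markers (Lamp5) was lower in each. Tbc1d8 also had 1 of 5 hippocampal markers higher, and Gsg1l 1 of 8 microglia markers. The remaining lists had no call in these lines. The part of the neuronal, precursor and other markers without a covariate in the line differences was not tested. With the same covariates 13 members were lower in Tbc1d8 and 7 in Gsg1l, and 9 differed between lines. Over all genes 873 of 15723 were then lower in Tbc1d8 and 858 in Gsg1l. Tbc1d8 had 2 of its 8 libraries on plate 2 (male replicates 45 and 47) and Gsg1l 1. On plate 1 alone 11 members were lower in each, where 606 of 15912 genes were lower in Tbc1d8 and 860 in Gsg1l.

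The sex difference was not shown to depend on line. No member passed the interaction test in edgeR, where 0.0382% of all genes did, and limma-voom called 0. At an unadjusted p under 0.05 there were 4 of 57 members and 597 of 15723 genes. The smallest p were those of Pcdha3 (0.0104), Pcdha4 (0.0207) and Pcdhb17 (0.023), each with an adjusted p of 1. Plates gave no call either, in edgeR or in DESeq2, where 0.242% of all genes were called by edgeR. An unadjusted p under 0.05 was reached by 10 of 57 members and 1970 of 15723 genes. Pcdhb21 averaged 3.47 CPM on plate 2 and 4.17 on plate 1, a log2 difference of -0.28 ± 0.08 with line and sex in the fit (adjusted p = 0.0828). Pcdhb6 averaged 2.27 CPM on plate 2 and 2.82 on plate 1 (-0.24 ± 0.09, adjusted p = 0.195), and Pcdhac2 48.9 and 52.8 (-0.09 ± 0.03, adjusted p = 0.206).

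Among genes known to act on the clusters, the called sex differences were small. By sex 4.07% of all genes were called higher and 4.5% lower in females. Of 21 tested genes for chromatin architecture and silencing, 4 were lower in females and none higher: Wiz, Ehmt2 and Ehmt1, which act together in histone H3 methylation, at -0.07 ± 0.01, -0.05 ± 0.01 and -0.04 ± 0.01, and Trim28, a corepressor, at -0.05 ± 0.01 on the log2 scale (adjusted p = 0.000108, 0.000989, 0.025 and 0.00196). Ctcf, whose protein anchors the loops between protocadherin promoters and enhancers, averaged 76.5 ± 3.20 CPM in females and 77.0 ± 3.42 in males and was not called. By line it was lower, at -0.08 ± 0.02 in Tbc1d8 (adjusted p = 0.00384) and -0.11 ± 0.02 in Gsg1l (adjusted p = 6.35e-05). Dnmt1, the maintenance DNA methyltransferase, was lower by -0.09 ± 0.02 and -0.08 ± 0.02 in the same lines. Setdb1, a histone methyltransferase that represses the clusters, was higher in Gsg1l (0.08 ± 0.02, adjusted p = 0.00729) and not called in Tbc1d8 (0.05 ± 0.02). In all 2 of the 21 were lower in Tbc1d8, where 6.79% of all genes were lower. In Gsg1l 5 were lower and 1 higher, where 5.58% of all genes were lower and 4.86% higher.

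Of 19 genes for signalling partners of protocadherins, 3 were higher and 1 lower in females, where 4.07% of all genes were higher and 4.5% lower. Among them Pak1, a kinase of actin control, was higher by 0.08 ± 0.01 (adjusted p = 1.35e-07) and Adam10, a protease that sheds protocadherin ectodomains, by 0.04 ± 0.01; Ptk2b, the kinase Pyk2, was lower by -0.03 ± 0.01. In Tbc1d8 1 was higher and 2 lower, where 5.66% of all genes were higher and 6.79% lower. In Gsg1l 1 was higher and 4 lower, where 4.86% of all genes were higher and 5.58% lower. Brk1, of the WAVE complex, was the higher one, at 0.12 ± 0.02 in Tbc1d8 and 0.15 ± 0.02 in Gsg1l, and Rac1, the GTPase that activates that complex, was lower at -0.07 ± 0.02 and -0.06 ± 0.02.

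The unclustered protocadherins, single genes outside the clusters, had no call by sex among 12 in edgeR or DESeq2, and none at an unadjusted p under 0.05. Pcdh8, which takes part in synapse remodelling, was higher in Tbc1d8 (0.25 ± 0.07, adjusted p = 0.00464) and in Gsg1l (0.21 ± 0.07, adjusted p = 0.0264), opposite in direction to the clustered members called there. Pcdh9 was lower in Tbc1d8 (-0.12 ± 0.03) and Pcdh17 in Gsg1l (-0.17 ± 0.05). In all, 1 of the 12 was higher and 1 lower in Tbc1d8, where 5.66% of all genes were higher and 6.79% lower. In Gsg1l 1 was higher and 2 were lower, where 4.86% of all genes were higher and 5.58% lower. Of 18 tested genes that flank the clusters, none was called by sex in edgeR or DESeq2, with 2 at an unadjusted p under 0.05. In Tbc1d8 4 were higher and 1 lower, where 5.66% of all genes were higher and 6.79% lower. In Gsg1l 3 were higher and 2 lower, where 4.86% of all genes were higher and 5.58% lower. Zmat2 was higher by 0.16 ± 0.02 in each of these lines and Hars, a tRNA synthetase, by 0.12 ± 0.02 in Tbc1d8 and 0.13 ± 0.02 in Gsg1l, whereas Ik, a splicing factor, was lower by -0.15 ± 0.02 and -0.09 ± 0.02.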

How the data were processed

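RNA of dissected cerebral cortex was measured in 8 libraries from each of 13 lines. The kit was strand-specific, per the labels' protocols. Per the submitters' processing notes, HTSeq 0.10.0 and STAR 2.7.3a were used, with GRCm38 (mm10). The counting mode and the strand setting are not given in the sources used here. The authors deposited whole-number counts of reads per RefSeq symbol (24060 genes), with no normalization, and counts per Ensembl gene, of which the 19563 complete lines served as an alternative. They also deposited FPKM values per RefSeq gene, scaled by gene length and library depth. The lengths behind these FPKM values came out as whole bases (within 0.01) for 100% of 20940 genes and hold the constant exons of the alpha and gamma genes.

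The deposited counts went into edgeR 4.0.16 (R 4.3.3): quasi-likelihood fits, TMM scaling and a filter on low counts (filterByExpr, grouped by sex within line) that left 15723 genes. A call is an adjusted p below 0.05 (Benjamini-Hochberg, all genes tested). The sex test had line in the model. The line tests had sex in the model and were an F-test and 13 contrasts, each of 1 line with the average of the other 12. The interaction and plate tests had both. A standard error was obtained from a fold change and its F statistic. Alternatives used DESeq2 1.42.0, limma 3.58.1 (voom, log2(FPKM + 0.1) and log2(FPKM + 1)), subsets of libraries and covariates; tables were handled with the R package data.table, version 1.17.8. Tests were checked on simulated counts. Coordinates are from GENCODE on GRCm38; 58 members were placed by a RefSeq gene start within 500 bases of a GENCODE one. The members and the gene lists were chosen with earlier results of these data known. Named are the C-type genes, the 3 highest and 3 lowest members of each cluster by median FPKM, up to 10 called members with the smallest p in the sex test, the F-test over lines, the interaction and the plate test (with under 3 calls, the 3 smallest p), the called member with the smallest p in each line's own contrast and direction, Pcdhb2 and Pcdhb6, and up to 4 genes per pathway list and test. Members named outside this rule are said to be so. A gene of the pathway lists is not reported here, and further genes of these lists and members called in single lines are given by count.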

Additional observations from a re-analysis of the deposited data

Results flagged for a closer look

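In 6 of 68 groups of 8 libraries the lowest library stood apart from the others of its line. These groups were the 3 cluster sums in each of 13 lines and the 29 pairs of a member and a line with a call. Chance alone flags about 1 separate group in 20. The groups share libraries and members, so the count cannot be set against that rate. In Tbc1d8, male replicate 47, which had the second lowest depth of the series (23.9 M reads), summed to 85.4 CPM over alpha genes where the other 7 lay at 98 to 107, and its Pcdhac2 was at 40.9 CPM where the others lay at 47.3 to 52. In Gsg1l, male replicate 13 summed to 422 CPM over gamma genes where the others lay at 480 to 502, and its Pcdhgc5 was at 125 CPM where the others lay at 146 to 162. In Ece2, male replicate 12 summed to 103 CPM over alpha genes where the others lay at 113 to 121. In Rgs9, female replicate 43, a library whose Xist and Y-linked reads go against its sex label, summed to 476 CPM over gamma genes where the others lay at 506 to 522. What sets these libraries apart was not tested.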

How the results depend on the processing

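Members called higher in females numbered 9 to 13 and members called by sex 10 to 16 over the 23 alternatives. Members lower in females (2) were 1 without the filter on low counts and without the line Arpp19, Dach1, Ece2 or Pcdh20, and 0 without Hrk, Kdm3b, Rasgef1a or Zswim6. Members called by line (16) were 9 with tissue scores as covariates, 8 on plate 1 alone, 1 in females alone, 3 in males alone and 0 without Tbc1d8 and Gsg1l; of the beta members in the Ensembl counts 2 were called, against 4. Members lower in Tbc1d8 (18) were 11 on plate 1 alone, 6 in females alone, 9 in males alone and 13 to 16 with each of its libraries left out. Members lower in Gsg1l (11) were 7 on log2(FPKM + 1), 7 with the covariates, 1 in females alone, 12 in males alone and 3 to 16 with each of its libraries left out, where 0 to 1 were higher. Over all genes, 283 of 15547 were lower in Tbc1d8 in females alone and 400 of 15552 in males alone. For Gsg1l these were 71 in females alone and 561 in males alone. On plate 1 alone 606 of 15912 genes were lower in Tbc1d8, and with the covariates 858 of 15723 were lower in Gsg1l. The single-line alternatives were chosen after seeing the data. No named member changed direction in a called value. Shares within a cluster on FPKM moved by over 1 SD for 12 of 58 members.

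Female and male libraries share numbers in the titles. Of 52 such pairs 21 had correlated deviations over 0.1 (median 0.0368, from -0.553 to 0.699) and 15 female libraries correlated best with their own number. Each was compared with the 4 males of its line, of which 1 bears its number, so about 1 in 4 would match without pairing. With the replicate block in place of line 13 members were called by sex, 11 higher and 2 lower.

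Lines are confounded with batches, and each sex of a line holds 4 libraries. Among tested members depth limits Pcdha4, Pcdha8 and Pcdhgb8 most, at 23.5, 27.1 and 30.7 reads per library.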
